A study of Arabidopsis thaliana with 14 samples.

Results

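SWEET proteins are membrane carriers that let sugars pass down their gradient, and plants use them to release sugar from a cell into the space around it. A developing embryo has no vascular link to its mother plant, so sugar leaves the phloem in the seed coat, crosses the endosperm and is taken up by the embryo. Every step that crosses from maternal to filial tissue needs an exporter on the giving side. Signals of 5 SWEET genes are described here: SWEET10 (AT5G50790), SAG29 (AT5G13170, also named SWEET15), SWEET11 (AT3G48740), SWEET7 (AT4G10850) and SWEET4 (AT3G28007). They were chosen by name, with earlier results of these data known. Each was measured by 1 probe set that is assigned to that gene alone, 5 of the 22746 non-control probe sets. SWEET10, SWEET11 and SAG29 belong to the clade of mostly sucrose carriers, and SWEET4 and SWEET7 to a clade that mostly carries hexoses.

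The samples were tissues cut by laser from sections of mature green seeds of Arabidopsis thaliana, genotype Ws-0, whose plants were 38 to 46 days old and grew in continuous light. Whole seeds, the embryo proper, the chalazal, micropylar and peripheral endosperm, the chalazal seed coat and the remaining seed coat had 2 arrays each, 14 in all. No group carried a treatment or a mutation. The seed is joined to the mother plant at its chalazal end, and the embryonic root points to the micropylar end. Replicates are named biological, with no word on which plants gave each, so p-values reflect only how far these samples spread, which may be technical. The number of arrays limits the precision of every value.

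A signal is an array intensity on a linear scale. For tests, signals were put on the log2 scale after those under a floor of 23.4 were set to the floor. Where only the lower side of a difference has arrays at the floor, it is a lower limit on that scale, written "at least". A fold is a ratio of geometric means of these values. An adjusted p is that of limma over 14257 tested probe sets, and a difference is called when it is under 0.05. A probe set was tested if both arrays of some group lay above their array's median. All 5 genes passed, but SWEET4 passed only through the chalazal seed coat and SWEET10 only through the chalazal seed coat and whole seeds, so a high value there was a condition of being tested. The signal of a probe set cannot be compared with that of another as an amount of transcript, so levels are ordered by tissue within a gene. Where a gene is called weak or low as a whole, its signals lay near the floor or the array medians. Sums of marker signals are compared between tissues only.

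Array quality differed between groups. Replicates correlated at 0.812 in seed coat and up to 0.929 in peripheral endosperm, across probe sets. Spiked hybridisation controls were brighter on both seed coat arrays (geometric means of 60771 and 83579) than on any of the other 12 (24204 to 39498). The ratio of signal at the end of the actin transcript to that at its start ran from 4.13 to 16.9 over the arrays. It was 4.13 and 7.36 in seed coat, 13.2 and 5.49 in chalazal seed coat, and 16.9 and 9.31 in embryo. The same ratio for the GAPDH transcript was 4.55 and 6.58 in seed coat, 3.55 and 3.53 in chalazal seed coat, and 7.10 and 4.19 in embryo. For the ubiquitin transcript it was 6.37 and 5.74, 6.24 and 6.06, and 5.45 and 7.10, in the same order of groups. These ratios did not order the groups alike. Their part in the results was not tested. Of 12 seed coat marker genes 5 were measured, and their summed signal was 14250 to 21890 in seed coat, 7627 to 15080 in chalazal seed coat, 1899 to 2959 in the endosperm parts and 546 to 786 in the embryo. Most of it was ARA12, with a mean of 15565 in seed coat, while DELTA-VPE averaged 1515 in chalazal endosperm and 624 in chalazal seed coat and was the 1 seed coat marker called higher in chalazal endosperm than in the other compartments. Of 8 embryo marker genes 4 were measured, with sums of 59300 to 65770 in the embryo, 3690 to 25060 in the endosperm parts, 232 to 407 in chalazal seed coat and 2296 to 2551 in seed coat. STOMAGEN, the embryo marker with the lowest signals elsewhere, lay between 2.24 and 61.8 on the 10 arrays of the other compartments. The sums in the endosperm parts were mostly those of both cupin genes, with averages of 1128 to 14016 there. YAB3 averaged 21.9 to 46.7 in these parts. Of 10 endosperm marker genes only AGL62 and IKU2 were measured, both failed the filter, and their sum was 14.4 to 123.6 in the endosperm parts and 110.2 to 187.1 in the seed coats, so the endosperm labels could not be checked with them. No marker of the chalazal endosperm or the phloem was measured.

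The 5 genes differed most in where they peaked, and 4 of them were lowest or at the floor in the embryo. SWEET10 peaked in chalazal seed coat, SAG29 in seed coat, SWEET11 in peripheral and chalazal endosperm, and SWEET7 in the endosperm parts and the chalazal seed coat. SWEET4 was weak and was seen in both parts of the seed coat. In bulk tissue such as this, fewer expressing cells and less RNA per cell cannot be told apart.

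**Figure D1:**
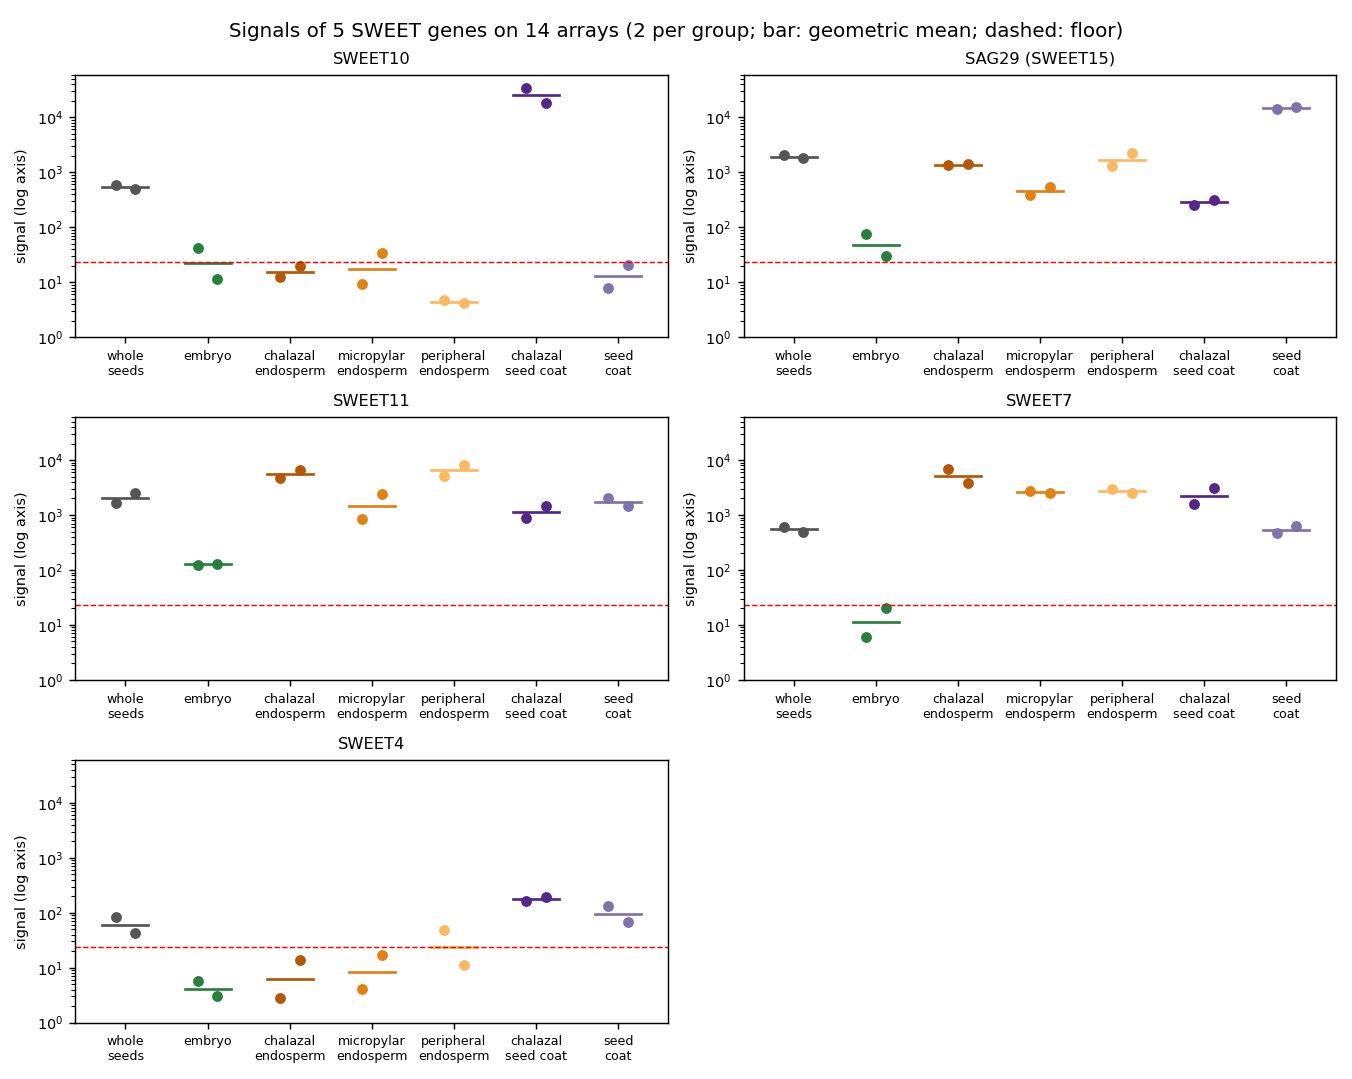
Signal on each of the 14 arrays (log axis) for the 5 SWEET genes in whole seeds and the 6 compartments. Points are single arrays, bars are geometric means of 2 arrays and the dashed line is the floor of 23.4. SWEET10 lies at 34178 and 18253 in chalazal seed coat and at 42.5 or less on the arrays of the other compartments, and SWEET7 lies under the floor on both embryo arrays.

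SWEET10, a sucrose carrier known from the shoot apex at the floral transition, was a transcript of the chalazal seed coat. Its signals were 34178 and 18253 in chalazal seed coat. They were 42.5 and 11.6 in embryo, 12.4 and 19.5 in chalazal endosperm, 9.09 and 34.4 in micropylar endosperm, 4.66 and 4.15 in peripheral endosperm, and 7.78 and 20.9 in seed coat. Both chalazal seed coat arrays lay above all others, and 8 of the 10 arrays of the other compartments were under the floor. The difference of chalazal seed coat from the mean of the other 5 compartments was at least 9.92 ± 0.51 on the log2 scale (SE), at least 966.2-fold (adjusted p = 1.7e-09). Ranked by this difference, SWEET10 was number 1 among the 14257 probe sets tested. The gene was tested only through its signals there and in whole seeds, so its differences from chalazal seed coat and their ranks are descriptions.

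Against the seed coat alone, which belongs to the same maternal tissue, SWEET10 was at least 1066-fold higher in chalazal seed coat (10.06 ± 0.66, adjusted p = 1.9e-07), again number 1 of all tested probe sets. Against the chalazal endosperm, the tissue on the other side of the maternal boundary, it was higher by at least 10.06 ± 0.66 (adjusted p = 1.5e-07). Of the 15 pairs of compartments 5 were called for SWEET10, the 5 that contain chalazal seed coat, in the fit as reported and in each of the 22 alternatives tried. No order could be given to the remaining compartments, whose means lay within 0.43 of each other at or near the floor. Their negative differences from the mean of the other 5, between -2.15 and -1.64, follow from the high chalazal seed coat value in that mean. BAN, an enzyme of tannin synthesis and a seed coat marker, had 357 and 1189 in chalazal seed coat, against 24.0 and 24.8 in seed coat. Of the 5 measured seed coat markers 2 were called higher in chalazal seed coat than in seed coat and 1, DELTA-VPE, lower.

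SWEET10 was also found in whole seeds, with 587 and 496, at least 17.1-fold above the embryo (4.09 ± 0.66, adjusted p = 0.0011). Whole seeds minus chalazal seed coat was -5.53 ± 0.66 (adjusted p = 1.5e-05). SWEET13 (AT5G50800), the gene next to SWEET10 on chromosome 5 and another sucrose carrier, had 103 and 119.7 in chalazal seed coat, against 15.1 and 94.4 in seed coat. SWEET13 failed the filter and was not tested.

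SAG29, a sucrose carrier first described in senescing leaves and known with SWEET11 from the supply of Arabidopsis embryos, was highest in the seed coat outside the chalazal region. Its signals were 13994 and 15670 in seed coat, 1284 and 2218 in peripheral endosperm, 1331 and 1435 in chalazal endosperm, 391 and 537 in micropylar endosperm, 252 and 316 in chalazal seed coat, and 76.2 and 30.6 in embryo. The seed coat arrays did not overlap with those of any other group. The seed coat exceeded the mean of the other 5 compartments by 5.11 ± 0.34, or 34.5-fold (adjusted p = 1.3e-07). It remained called with spike-in scaling, which divides each array by its hybridisation controls, at 3.87, while that scaling moved the median of all probe sets by -1.18. The part of the higher control signal of the seed coat arrays in the result was not tested further.

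Within the seed coat SAG29 ran the opposite way to SWEET10. It was 52.4-fold lower in chalazal seed coat than in seed coat (-5.71 ± 0.44, adjusted p = 6.4e-07), and only 2 of the 14257 tested probe sets had a more negative difference. Of the 15 pairs of compartments 12 were called. The order ran from seed coat through peripheral and chalazal endosperm, micropylar endosperm and chalazal seed coat to the embryo. Neighbours in that order that did not differ beyond their spread were peripheral and chalazal endosperm (0.29 ± 0.44, adjusted p = 0.81) and micropylar endosperm and chalazal seed coat (0.70 ± 0.44, adjusted p = 0.25). The difference of chalazal from micropylar endosperm, 1.59 ± 0.44 (adjusted p = 0.034), was called in 12 of the 22 alternatives. The embryo was 5.85-fold lower than chalazal seed coat, its neighbour in the order (-2.55 ± 0.44, adjusted p = 0.00025).

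SWEET11, a sucrose carrier that in leaves loads the phloem, was highest in peripheral and chalazal endosperm. Its signals were 5214 and 8040 in peripheral endosperm, 4648 and 6530 in chalazal endosperm, 862 and 2379 in micropylar endosperm, 2038 and 1449 in seed coat, 866 and 1469 in chalazal seed coat, and 126 and 130.3 in embryo. The arrays of peripheral and chalazal endosperm lay above all arrays of the other compartments and overlapped with each other. Peripheral endosperm exceeded the mean of the other 5 compartments by 2.50 ± 0.35 (adjusted p = 0.00048) and chalazal endosperm by 2.22 ± 0.35 (adjusted p = 0.00062). Both calls held in each of the 22 alternatives.

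The SWEET11 level in the micropylar endosperm was close to that of the seed coats. Micropylar endosperm differed from seed coat by -0.26 ± 0.45 (adjusted p = 0.71) and from chalazal seed coat by 0.34 ± 0.45 (adjusted p = 0.62). Its arrays lay apart by more than those of any other group for this gene, with an SD of 1.04 on the log2 scale. Chalazal endosperm was above micropylar endosperm by 1.94 ± 0.45 (adjusted p = 0.014), a call kept in 19 of 22 alternatives and lost without micropylar endosperm replicate 1, without chalazal endosperm replicate 2 and with no intensity trend. Micropylar minus peripheral endosperm was -2.18 ± 0.45 (adjusted p = 0.057), and that difference was called with spike-in scaling, without micropylar endosperm replicate 2 and with the replicate number as a block. At the boundary from seed coat to endosperm, SWEET11 was higher on the endosperm side. Peripheral endosperm exceeded seed coat by 1.91 ± 0.45 (adjusted p = 0.0049), lost without peripheral endosperm replicate 2, and chalazal endosperm exceeded chalazal seed coat by 2.29 ± 0.45 (adjusted p = 0.0014).

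SWEET7, a hexose carrier, was present in every compartment except the embryo. Its signals were 6911 and 3815 in chalazal endosperm, 2955 and 2499 in peripheral endosperm, 2683 and 2514 in micropylar endosperm, 1579 and 3088 in chalazal seed coat, 463 and 620 in seed coat, and 6.08 and 20.4 in embryo. Both embryo arrays were under the floor and under each of the other 12 arrays. The embryo was at least 141.2-fold below the mean of the 3 endosperm parts (-7.14 ± 0.33, adjusted p = 9.9e-10), and only 2 tested probe sets had a more negative difference.

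Outside the embryo SWEET7 was lowest in seed coat. Chalazal, peripheral and micropylar endosperm and chalazal seed coat followed each other in the order of levels with no difference between neighbours beyond their spread (0.07 ± 0.41 to 0.92 ± 0.41). Chalazal seed coat then exceeded seed coat by 2.04 ± 0.41, or 4.12-fold (adjusted p = 0.0034), a call held in all 22 alternatives. Seed coat in turn exceeded the embryo by at least 4.52 ± 0.41 (adjusted p = 7.3e-07). Chalazal endosperm was called above chalazal seed coat by 1.22 ± 0.41 (adjusted p = 0.037), but only in 14 of the 22 alternatives. SWEET7 therefore had the same direction between chalazal seed coat and seed coat as SWEET10, by a far smaller amount, and the opposite direction to SAG29.

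SWEET4, a hexose carrier known from veins and other axial tissues, was weak throughout. Its signals were 165.3 and 189.6 in chalazal seed coat, 131 and 67.7 in seed coat, 49.2 and 11.1 in peripheral endosperm, 4.14 and 16.7 in micropylar endosperm, 2.79 and 14.0 in chalazal endosperm, and 5.62 and 3.10 in embryo. All embryo, chalazal and micropylar endosperm arrays were under the floor. Chalazal seed coat exceeded the mean of the other 5 compartments by at least 2.41 ± 0.55, a description only, since the gene was tested because of its signal there. Between chalazal seed coat and seed coat the difference was 0.91 ± 0.72 (adjusted p = 0.44), and 2.07 with an adjusted p of 0.043 with spike-in scaling. Of the 15 pairs 7 were called. Those of chalazal seed coat with the embryo and each endosperm part are descriptions for the same reason. Those of seed coat with embryo, micropylar endosperm and chalazal endosperm had adjusted p-values of 0.041, 0.047 and 0.049, and were called in 14, 9 and 3 of the 22 alternatives.

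**Figure D2:**
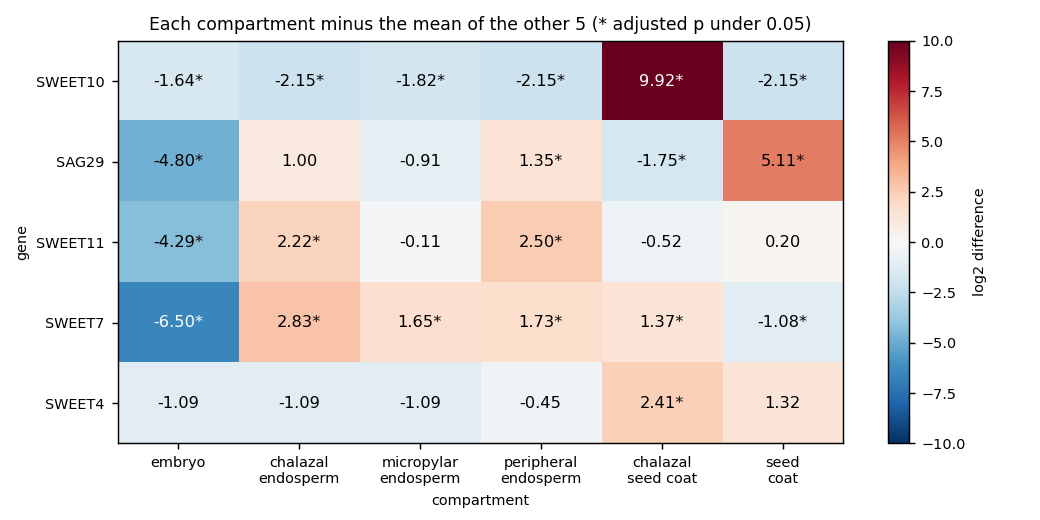
Log2 difference of each compartment from the mean of the other 5 for the 5 SWEET genes. Colour and number give the difference and an asterisk marks an adjusted p under 0.05. The largest values are 9.92 for SWEET10 in chalazal seed coat, 5.11 for SAG29 in seed coat and -6.50 for SWEET7 in embryo, and the 6 differences of a gene add up to 0.

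The embryo, the tissue that receives the sugar, was set against the average of the remaining compartments. Of the 5 genes 4 were called lower and 0 higher, while 12.7% of all tested probe sets were called lower and 12.6% higher. SWEET7 was at least 90.5-fold lower (-6.50 ± 0.31, adjusted p = 1.1e-09), SAG29 27.9-fold (-4.80 ± 0.34, adjusted p = 5.3e-08) and SWEET11 19.6-fold (-4.29 ± 0.35, adjusted p = 2.5e-07). The call on SWEET10, -1.64 ± 0.51 (adjusted p = 0.026), followed from its chalazal seed coat value, and was lost with no floor, with no filter and without either embryo replicate. The median difference of the 5 genes was -4.29, against -0.01 over all tested probe sets.

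The embryo against the endosperm that surrounds it gave 3 genes lower and 0 higher (8.41% and 7.71% of all tested probe sets), and these 3 were called in each of the 22 alternatives. SWEET7 has been given above. SWEET11 had a log2 difference of -4.86 ± 0.37, or 29-fold (adjusted p = 1.3e-07), and SAG29 one of -4.40 ± 0.36, or 21.2-fold (adjusted p = 2.6e-07). SWEET4 and SWEET10 were at or near the floor on both sides. Of the embryo markers, the cupin genes had signal in the endosperm captures, while STOMAGEN and YAB3 were near the floor there, as given above. The part of embryo tissue in these differences was not tested.

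The mean of the 3 endosperm parts was then compared with the mean of the 2 seed coat parts, the step from mother to offspring. All 5 genes were called, 2 higher and 3 lower in the endosperm, where 21.4% of all tested probe sets were called higher and 20.4% lower. SWEET4 and SWEET10 were tested because of their signal in chalazal seed coat, part of the coat mean, so their calls are descriptions. SWEET7 was 1.61 ± 0.26 higher in endosperm (adjusted p = 0.00013) and SWEET11 1.41 ± 0.29 (adjusted p = 0.00097). The difference was -4.94 ± 0.42 for SWEET10 (adjusted p = 2e-07), whose seed coat arrays were at the floor as well, at least -2.28 ± 0.46 for SWEET4 (adjusted p = 0.00084) and -1.001 ± 0.28 for SAG29 (adjusted p = 0.0091). The SAG29 call was lost at -0.29 with spike-in scaling (adjusted p = 0.42). A mean of both coats hides that SAG29 in the endosperm lay between them: chalazal endosperm minus chalazal seed coat was 2.29 ± 0.44 (adjusted p = 0.0011), while peripheral endosperm minus seed coat was -3.13 ± 0.44 (adjusted p = 9e-05). SWEET7 was not called for micropylar or peripheral endosperm against chalazal seed coat (0.23 ± 0.41 and 0.30 ± 0.41, adjusted p = 0.72 and 0.63). SWEET11 in micropylar endosperm was not called against either part of the seed coat, as given above.

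**Figure D3:**
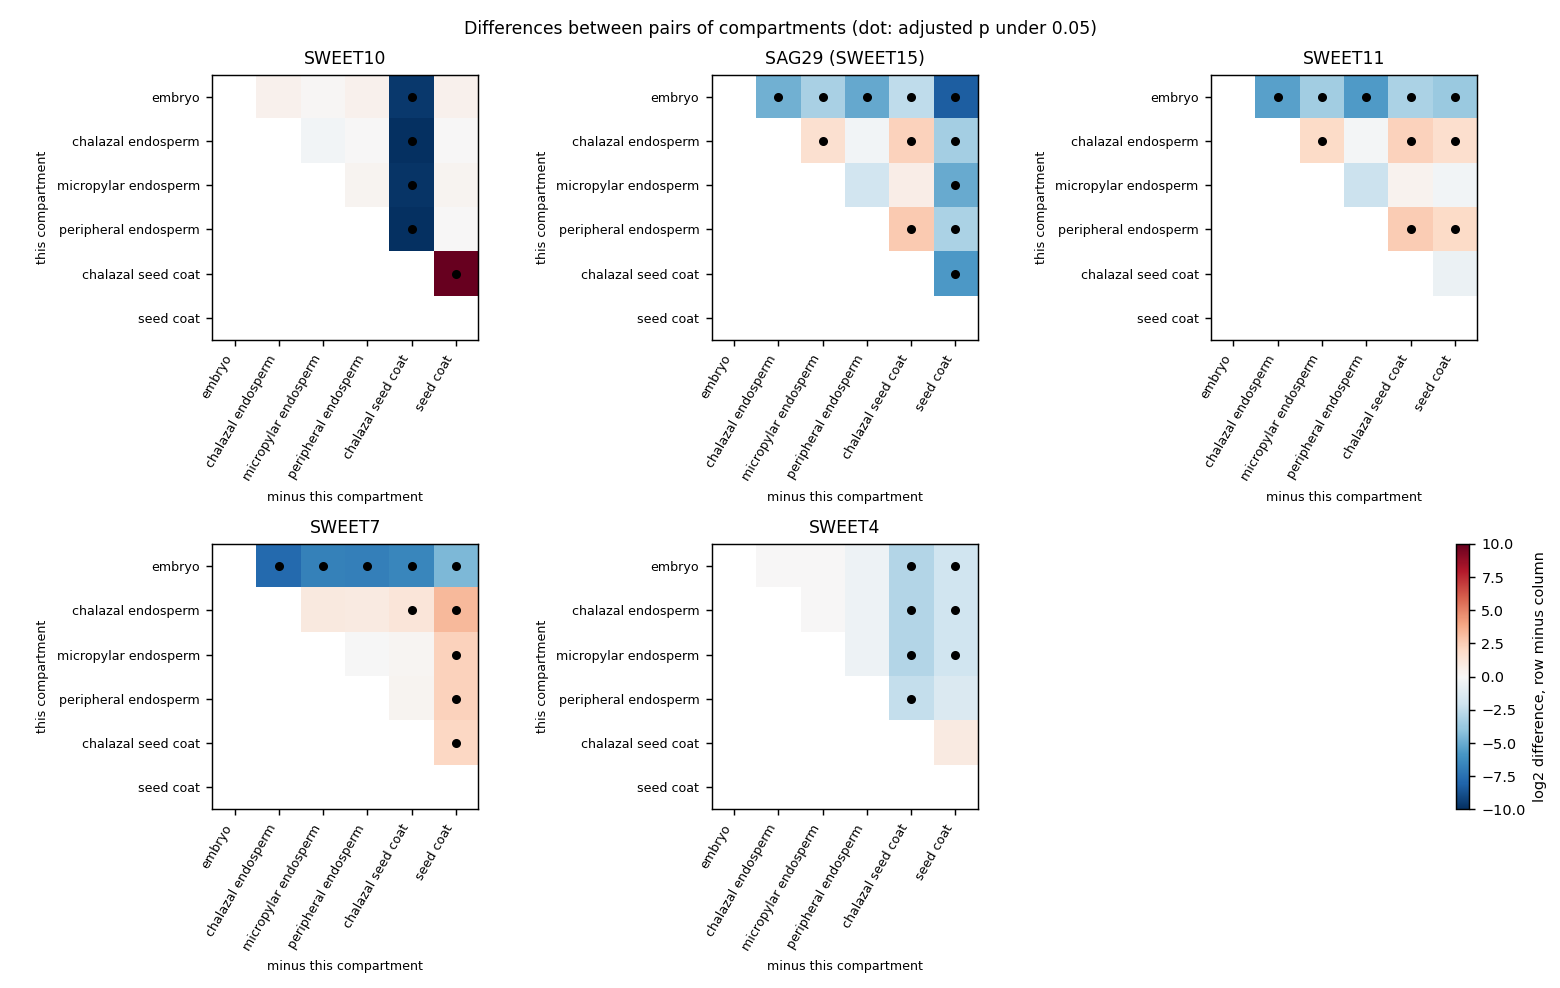
Log2 differences between pairs of compartments for the 5 SWEET genes, row minus column, with a dot where the adjusted p was under 0.05. Of 15 pairs 5 were called for SWEET10, all with chalazal seed coat, 12 for SAG29, 10 for SWEET11, 10 for SWEET7 and 7 for SWEET4. For SWEET10 and SWEET4 the pairs with chalazal seed coat are descriptions. The embryo row is called throughout for SAG29, SWEET11 and SWEET7.

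Over all tested probe sets, the share called between a pair was 18.4%, 11.7%, 9.39%, 35.6% and 32.5% for the embryo against chalazal, micropylar and peripheral endosperm, chalazal seed coat and seed coat. It was 24.7% and 25.7% for chalazal endosperm against chalazal seed coat and seed coat, 30.2% and 27.2% for micropylar endosperm, 30.8% and 26.7% for peripheral endosperm, and 14.9% between both seed coat parts. Within the endosperm it was 7.58% for chalazal against micropylar, 5.45% for chalazal against peripheral and 0.302% for micropylar against peripheral endosperm. The 3 pairs within the endosperm thus had few calls of any kind, and 1 each for SWEET11 and SAG29 among the 5 genes, chalazal against micropylar. Micropylar minus peripheral endosperm was larger in size for both genes but not called. It was -2.18 ± 0.45 for SWEET11 (adjusted p = 0.057) and -1.88 ± 0.44 for SAG29 (adjusted p = 0.099). P-values were adjusted within a comparison, so a call in 1 pair and none in the other does not order these parts.

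The chalazal pole was compared within each tissue. In the seed coat 2 genes were higher at the chalazal end, SWEET10 and SWEET7, and 1 was lower, SAG29, against 7.13% and 7.77% of all tested probe sets. For SWEET10 a high chalazal seed coat or whole seed signal was a condition of being tested. In the endosperm, chalazal against the mean of the other parts, limma called 0 of the 5 genes (4.57% and 4.73% of all tested probe sets were called higher and lower). SWEET7 (0.95 ± 0.35, adjusted p = 0.11) and SWEET11 (0.86 ± 0.39, adjusted p = 0.21) were not called in any of the 22 alternatives either. The test of the difference between both chalazal differences called SWEET10 lower and SAG29 higher in the endosperm (3.49% and 2.67% of all tested probe sets). It did not call SWEET7 (-1.09 ± 0.54, adjusted p = 0.25), which passed with spike-in scaling at -2.51 (adjusted p = 0.0039), nor SWEET11 (1.46 ± 0.60, adjusted p = 0.16).

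Each of the remaining compartments was set against the mean of the other 5. In chalazal seed coat 3 genes were higher and 1 lower (15.7% and 16.8% of all tested probe sets), where SWEET10 and SWEET4 were tested because of their signal in that tissue, the lower gene was SAG29 (-1.75 ± 0.34, adjusted p = 0.00084) and SWEET7 was 1.37 ± 0.31 higher (adjusted p = 0.0031), lost without chalazal seed coat replicate 2. In seed coat 1 gene was higher and 2 were lower (14% and 14.6%). SWEET7 differed there by -1.08 ± 0.31 (adjusted p = 0.017), a call lost with no floor and without seed coat replicate 1. In peripheral endosperm 3 genes were higher and 1 lower (5.49% and 4.17%). Among them SAG29 (1.35 ± 0.34, adjusted p = 0.018) was lost without either peripheral replicate and with no intensity trend, and without either peripheral replicate so was SWEET7 (1.73 ± 0.31, adjusted p = 0.0028). In chalazal endosperm 2 were higher and 1 lower (6.74% and 6.07%), and SWEET7 led with at least 2.83 ± 0.31 (adjusted p = 3e-05). In micropylar endosperm 1 was higher and 1 lower (6.15% and 5.37%), with SWEET7 at 1.65 ± 0.31 (adjusted p = 0.0032), lost without micropylar endosperm replicate 1. The low embryo raises these differences for SWEET7, SWEET11 and SAG29, since it is part of the mean. Both embryo arrays of SWEET7 were at the floor, so its differences above 0 in this paragraph are lower limits. Its -1.08 in seed coat is not a lower limit, since the floor made it larger in size. The lower gene in each endosperm part, and with SWEET7 in seed coat, was SWEET10, at or near the floor there. Those calls follow from its chalazal seed coat value in the mean and are no result about these tissues.

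Whole seeds contain all compartments, and 4 of the 5 genes were higher there than in the embryo (3.54% of all tested probe sets were called higher and 1.26% lower). SWEET10, among them, was tested only through its signals in whole seeds and chalazal seed coat. SAG29 had 2033 and 1805 in whole seeds, 39.7-fold above the embryo (5.31 ± 0.44, adjusted p = 2.5e-06) and below seed coat (-2.95 ± 0.44, adjusted p = 0.00028). SWEET11 had 1631 and 2566 in whole seeds and was 16-fold above the embryo (3.999 ± 0.45, adjusted p = 4.5e-05). SWEET7, with 610 and 494, was at least 23.4-fold above the embryo (4.55 ± 0.41, adjusted p = 6.2e-06) but under each endosperm part, for example with -3.22 ± 0.41 against chalazal endosperm (adjusted p = 1e-04). SWEET4 had 82.6 and 43.3 in whole seeds and was not called against the embryo (1.35 ± 0.72, adjusted p = 0.37).

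The genes most like each SWEET gene were sought among 1071 other tested probe sets with a gene symbol, by Pearson correlation of log2 signals over the 14 arrays. These correlations are descriptions, since replicates of a group are not separate tissues and all genes share the arrays. SWEET10 was most like UBC29 (AT2G16740), a ubiquitin-conjugating enzyme (r = 0.96), BAN (0.95) and TET5 (AT4G23410), a tetraspanin (0.93). UBC29 averaged 454 in chalazal seed coat and at most 43.9 in any other compartment, and TET5 averaged 2374 there and at most 74.0 elsewhere. SWEET7 was most like scpl48 (AT3G45010), a serine carboxypeptidase-like protein (0.95), IQD28 (AT1G14380, 0.90) and UGT84B1 (AT2G23260), a glycosyltransferase (0.90). The SWEET11 list was led by scpl48 too (0.88), followed by the endoglucanase GH9C1 (AT1G48930, 0.88) and the subtilase SBTI1.1 (AT1G01900, 0.87).

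SAG29 had the weakest likeness, with OCT1 (AT1G73220), an organic cation transporter (0.84), the alpha-amylase AMY1 (AT4G25000, 0.83) and SDH2-2 (AT5G40650), a succinate dehydrogenase subunit (0.81). AMY1 averaged 2901 in seed coat and 208 in chalazal seed coat, in the same direction as SAG29. SWEET4 was most like IAA31 (AT3G17600, 0.90), UBA1A (AT2G22090, 0.90) and ARL (AT2G44080, 0.90). The most opposite pattern to both SWEET7 and SWEET11 was that of PPDK (AT4G15530), pyruvate orthophosphate dikinase (-0.94 and -0.83), with an average of 1262 in embryo and no more than 137.9 in the remaining compartments. Those of SWEET10, SAG29 and SWEET4 were IQD23 (AT5G62070, -0.85), KELP (AT4G10920, -0.82) and the plastid-encoded rpl22 (-0.93). Among the 5 SWEET genes, SWEET7 and SWEET11 were the most alike (r = 0.84) and SWEET10 and SAG29 the least (-0.22).

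The rest of the family was mostly low. Of 12 further SWEET loci 11 had a probe set and 3 were tested, and SWEET12 was not analysed here. The 8 that failed the filter, among them SWEET13, had signals of 1.83 to 210.5 with a median of 31.1. SWEET2, a carrier of the vacuole membrane, had 689 and 377 in seed coat and 256 and 144 in chalazal seed coat, against 2.14 to 46.1 on the 8 embryo and endosperm arrays. The endosperm parts were lower than the seed coats for SWEET2, at least 11.9-fold (-3.58 ± 0.48, adjusted p = 1.9e-05). SWEET1, a glucose carrier, was highest in seed coat too, with 482 and 391, with a log2 difference of 2.48 ± 0.69 from the average of all remaining compartments (adjusted p = 0.013), but without a call against chalazal seed coat or embryo alone.

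SWEET5, known from the vegetative cell of pollen, had a different pattern from all 5 members in that its embryo signals were high. They were 1467 and 1035 in embryo, 943 to 2310 in the endosperm parts, 192 and 1038 in chalazal seed coat, and 11.5 and 424 in seed coat. The log2 difference of embryo from seed coat was 3.63 ± 0.96 (adjusted p = 0.008), with 1 of the 2 seed coat arrays under the floor and the other far above it.

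Monosaccharide carriers outside the SWEET family were read from a list of 22 loci, of which 9 were measured and 5 tested. In the embryo 1 of the 5 was called higher and 0 lower, where 12.6% and 12.7% of all tested probe sets were. It was the sugar-porter family gene SFP2 (AT5G27360), with 1167 and 1106 in embryo, against 30.7 to 396 on the arrays of the other compartments (2.85 ± 0.58, adjusted p = 0.0017). STP5 (AT1G34580), of a family of proton-coupled monosaccharide carriers, had 2614 and 1734 in seed coat and 399 and 844 in chalazal seed coat, and the log2 difference of seed coat from the mean of the other 5 compartments was 4.37 ± 0.53 (adjusted p = 2.2e-05), with 1 of their 10 arrays at the floor. TST2 (AT4G35300), a carrier into the vacuole, was 2.18 ± 0.37 higher in the endosperm parts than in the seed coats (adjusted p = 2e-04), with 497 to 831 on the endosperm arrays and 100.8 to 342 on the seed coat arrays. Of 16 loci of sucrose cleavage only CWINV6 and VI1 were measured, both failed the filter, and both had their highest signal on seed coat replicate 1 (1161 and 604). The 9 sucrose uptake carriers of the SUC family and 9 amino acid carriers of seeds were not analysed here.

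**Figure D4:**
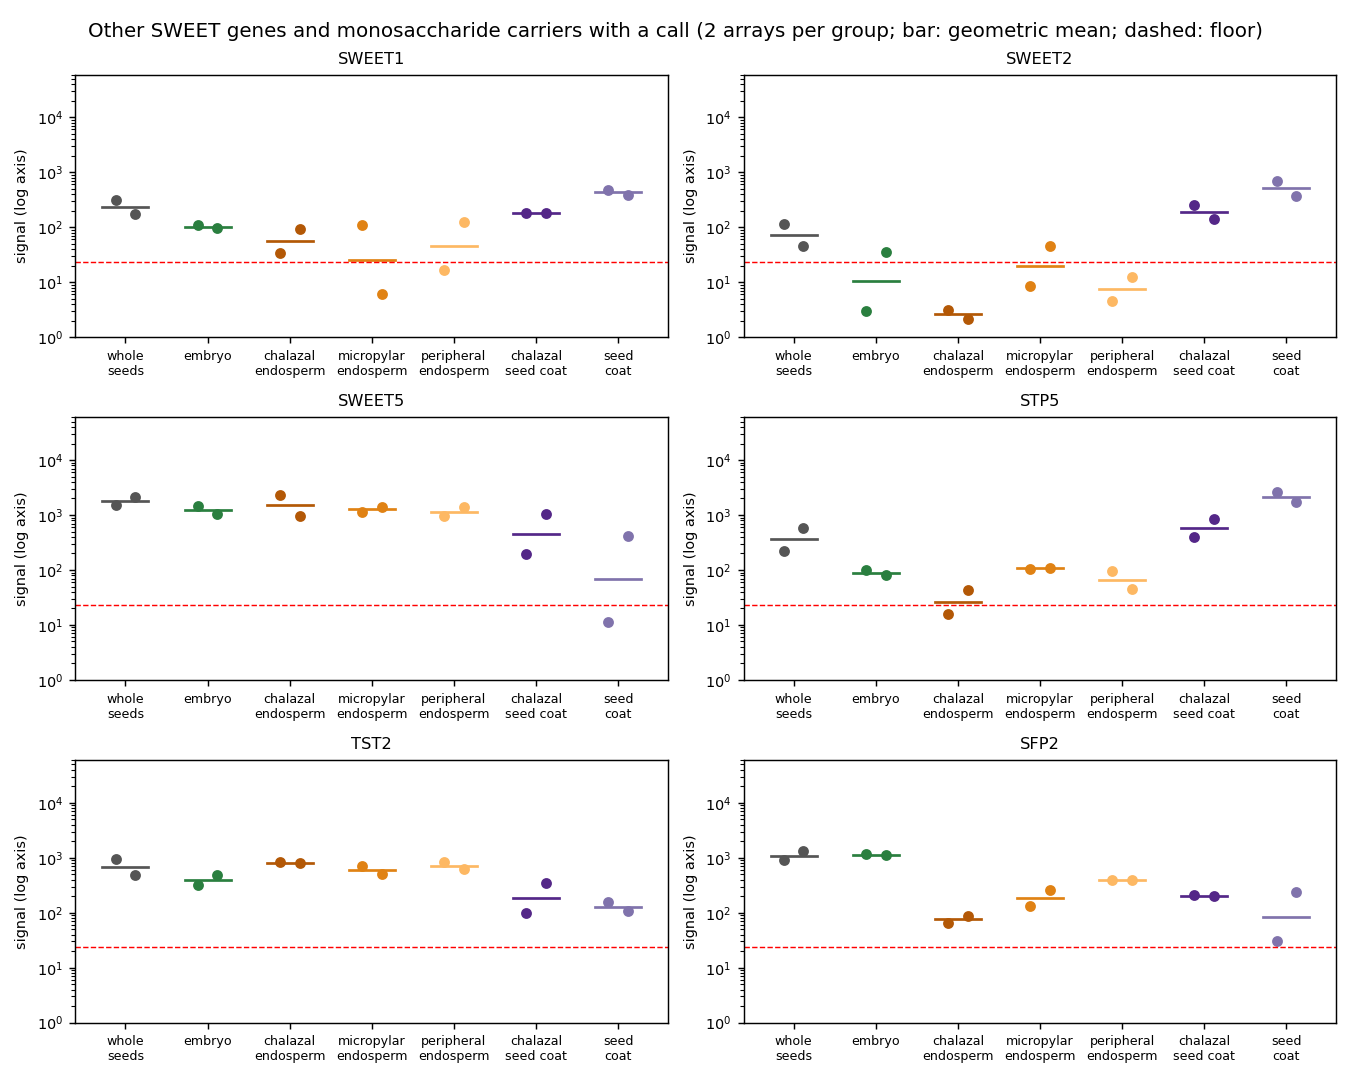
Signal on each array (log axis) for SWEET1, SWEET2, SWEET5, STP5, TST2 and SFP2, drawn as for the 5 SWEET genes, with the floor of 23.4 dashed. SWEET1, SWEET2 and STP5 are highest in seed coat, SFP2 in embryo and whole seeds, TST2 lies lower in both seed coat parts than in the endosperm parts, and SWEET5 is lowest in seed coat.

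**Figure D5:**
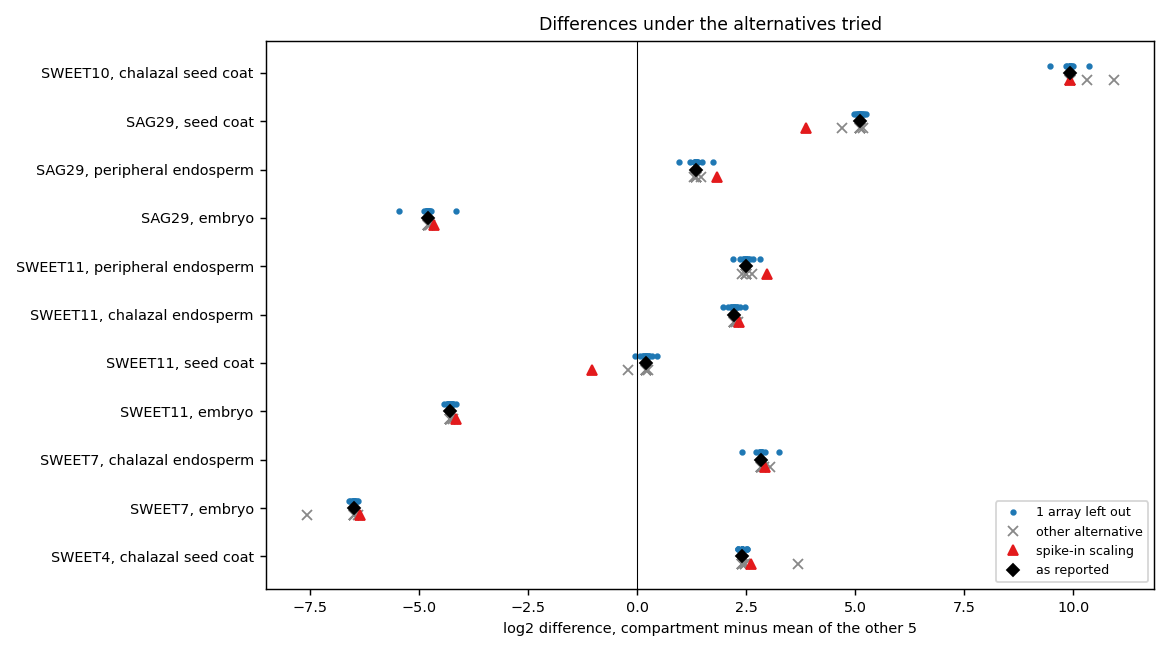
Log2 difference of a compartment from the mean of the other 5 for 11 combinations of gene and compartment, as reported (diamond), with spike-in scaling (triangle), with other alternatives (cross) and with 1 array left out (dot). SWEET11 in seed coat lies at 0.20 as reported, on both sides of 0 among the alternatives and at -1.03 with spike-in scaling, and the values of the other 10 stay on their side of 0.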

How the data were processed

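The authors' deposited intensities of 14 Affymetrix ATH1 arrays were used on the linear scale, as obtained with GCOS per the submitters' processing notes; version, signal algorithm and background handling are not named there. RNA from captured, paraffin-embedded sections was amplified before labelling, per the labels' protocols. Means trimmed by 2% at both ends were 500.0 to 500.1, and medians ran from 134 to 203.

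Of 22810 probe sets, 64 controls were left out. Probe sets were named with the platform table and the RefSeq gene table through gene identifiers, 13513 to 1 gene, 503 to several and 8730 to none. The floor is the middle of the arrays' 20th percentiles. A linear model with 1 mean per group (7 residual degrees of freedom) was fitted in limma 3.58.1 under R 4.3.3 with an intensity trend, and p-values were adjusted by Benjamini-Hochberg within a comparison. The script was tested on simulated data. The members, lists and comparisons were chosen with earlier results of these data known. Named were the 5 members, measured SWEET genes, called genes of the lists, and the 3 most and the 1 least similar genes. The 22 alternatives were 8 other settings and 14 fits without 1 array, with floor and tested probe sets kept.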

Additional observations from a re-analysis of the deposited data

Results flagged for a closer look

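The chalazal difference was tested for being unequal in endosperm and seed coat, and 2 of the 5 genes passed. For SWEET10 the difference of chalazal endosperm from the other endosperm parts was -0.14 ± 0.57, and that of chalazal seed coat from seed coat at least 10.06 ± 0.66. The first minus the second was -10.20 ± 0.87 (limma adjusted p = 9.6e-06). Its size is limited by the floor, where both chalazal endosperm arrays, 3 of the 4 other endosperm arrays and both seed coat arrays lay. SWEET10 was tested only through its signals in chalazal seed coat and whole seeds, so its result is a description. For SAG29 the chalazal difference was 0.65 ± 0.38 in endosperm and -5.71 ± 0.44 in seed coat, and the first minus the second was 6.37 ± 0.58 (adjusted p = 1.3e-05). Both kept their call in each of the 22 alternatives, between -10.66 and -9.74 for SWEET10 and between 4.94 and 6.56 for SAG29.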

How the results depend on the processing

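Of 60 differences of single genes, 43 kept their side of the threshold in every alternative, and 5 of these 43, none of them called, took both signs. The SWEET11 difference of seed coat from the mean of the other 5 compartments, 0.20 as reported, reversed to -1.03 with spike-in scaling, which moved the median of all probe sets by -1.18 in that comparison. The number of members called in micropylar endosperm was 2 as reported, 1 with no floor, 1 with no filter, and 0 to 3 when 1 array was left out. In peripheral endosperm it was 4, and 1 to 4 when 1 array was left out, and in seed coat it was 3, and 1 with no floor. Of the 15 pairs, 7 were called for SWEET4, against 4 with no floor, with division by the median and with quantile normalization, and 4 to 7 when 1 array was left out. The cause was not tested. For SWEET4 the pairs with chalazal seed coat are descriptions, as given above. Same-numbered arrays of different groups did not deviate together (correlations of -0.06 to 0.10 over 21 pairs of groups). With the replicate number as a block 6 pairs were called for SWEET4 and 11 for SWEET11, and the other counts were unchanged. Spike-in scaling moved the share of higher calls among all calls to 8.81% from 48.9% in seed coat against the rest, to 94.3% from 47.9% in chalazal seed coat against seed coat, and to 79.3% from 51.2% in endosperm against seed coats. Signals near the floor limit what can be said of SWEET4 everywhere and of SWEET10 outside the chalazal seed coat and whole seeds.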
